A study of Homo sapiens with 8 samples.

Results

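The genes described here encode the matrix metalloproteinases (MMP), the ADAM and ADAMTS proteases with their ADAMTS-like relatives (ADAMTSL), the tissue inhibitors of metalloproteinases (TIMP) and the cathepsins. They were chosen by gene symbol among protein-coding genes, which gave 86 of the 58735 genes in the count table: 23 MMP, 4 TIMP, 20 ADAM, 24 ADAMTS or ADAMTSL and 15 cathepsin genes. RNA was measured in SW480, a human colorectal adenocarcinoma cell line. The SPOCK1 cells stably overexpressed SPOCK1 with a FLAG tag after lentiviral infection, and the control cells carried the vector, with 4 libraries in each group. Per the labels' protocols, puromycin was kept on the cells until a Western blot showed SPOCK1. The labels do not say whether the cells are clones or pools, nor whether each group was grown as 4 cultures or as 1, so every p-value below rests on a spread between libraries that could be technical.

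MMPs are zinc proteases that cut extracellular matrix and other secreted proteins, most of them released as inactive precursors and some held at the cell surface as membrane-type enzymes. ADAMs are membrane proteins, several of which release the outer part of growth factors, receptors and adhesion molecules, while ADAMTS enzymes are secreted and bind the matrix. TIMPs block MMPs and some ADAMs, and cathepsins work mainly in lysosomes. SPOCK1 encodes testican-1, a secreted proteoglycan. Purified testican-1 is known as an inhibitor of cathepsin L, and testicans have been reported to interfere with the activation of pro-MMP-2 by membrane-type MMPs. The comparison asks which of these genes differ in RNA level when SPOCK1 is overexpressed.

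Libraries held 35643585 to 42812951 counts, and the 86 genes took 0.228% to 0.267% of them. SPOCK1 had 6719, 7828, 9712 and 8964 counts in SPOCK1 libraries 1 to 4, against 6, 0, 3 and 6 counts in control libraries 1 to 4. The keratins KRT8 and KRT18, EPCAM and the intestinal genes CDX2 and VIL1 were present in every library, while KRT20, CDH17, CDX1 and CEACAM5 had at most 7 counts in any library. Markers of other cell types that make many of these proteases in tumours were near 0. The 9 fibroblast markers summed to 1.06 to 1.83 CPM (the counts-per-million unit) in SPOCK1 libraries and 1.16 to 2.29 CPM in controls, with DCN, LUM and FAP at 0 counts throughout. The 11 leukocyte markers summed to 0.901 to 1.65 CPM in SPOCK1 libraries and 1.49 to 1.89 CPM in controls, and the 6 endothelial markers to 1.43 to 2.35 CPM in SPOCK1 libraries and 1.51 to 1.97 CPM in controls. PTPRC, the pan-leukocyte antigen, had 0 counts in all SPOCK1 libraries, against at most 2 in a control.

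Of the 86 genes 1 passed the test for a difference: ADAMTSL2, which fell by 44.6%. A total of 44 passed the filter on low counts and were tested, and of these 1 was lower, 0 were higher and 43 did not pass the test (edgeR quasi-likelihood test, Benjamini-Hochberg adjusted p under 0.05 over 15790 genes). That is 2.27% of those tested, against 1.04% of all genes tested, where 0.798% were lower and 0.247% higher. At an unadjusted p under 0.05 there were 6 lower and 1 higher, 7 of 44, where 8.17% of all genes tested were lower, 5.48% higher and 13.7% either. DESeq2 called 2 lower and 0 higher, against 1.96% lower and 0.776% higher of all genes. With offsets for GC content and length 2 were lower and 0 higher (1.82% and 1.96% of all genes), and with no filter beyond 1 count also 2 and 0 (0.969% and 0.417%). The CPM of the groups did not overlap in 6 of the 44, or 13.6%, against 8.23% of all genes tested. Of these 5 were lower and 1 higher, against 4.80% and 3.43% of all genes. The filter kept genes with enough counts in either group, so these counts do not describe the 42 that were not tested: 15 MMP, 11 ADAM, 12 ADAMTS or ADAMTSL and 4 cathepsin genes. Of these 22 had 0 counts in every library, and 17 of the 44 tested genes share exonic bases with another annotated gene. For MMP2, TIMP2, ADAM15 and CTSD such a gene lies on the same strand. The median log2 fold change of the 44 was -0.09, against -0.0042 over all genes tested, and 30 of the 44 were negative, against 50.8% of all genes tested.

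**Figure D1:**
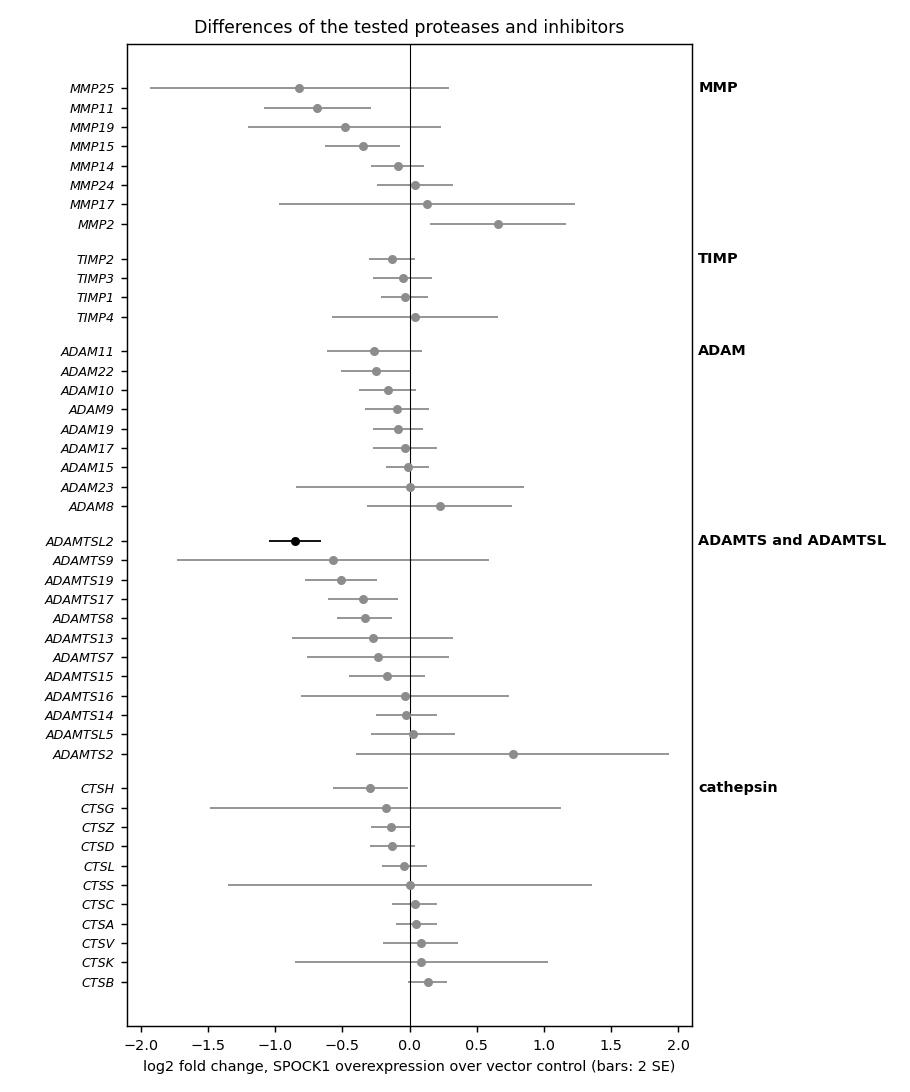
The log2 fold change of SPOCK1 overexpression over vector control is plotted for each of the 44 tested genes by family, with bars of 2 standard errors. ADAMTSL2 at -0.85, in black, passed the test, and the 43 in grey did not.

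ADAMTSL2 encodes a secreted glycoprotein that resembles ADAMTS enzymes but lacks their protease domain, and is known to bind fibrillin and latent TGF-β binding proteins. The gene (ENSG00000197859, chromosome 9, 133532164 to 133575519 on GRCh38, plus strand) shares no exonic base with another annotated gene. It had 27.2, 30.8, 29.3 and 35.9 CPM in SPOCK1 libraries 1 to 4, against 56.3, 58.9, 54.3 and 52.7 CPM in control libraries 1 to 4. Every SPOCK1 library lay below every control, with a wide gap between the groups. The means were 30.8 ± 3.72 CPM with SPOCK1 and 55.6 ± 2.69 CPM in controls (SD, n = 4 each). The difference was -0.85 ± 0.10 in log2 units (SE, edgeR adjusted p = 1.21e-04). Over 17 alternatives the log2 fold change lay between -0.97 and -0.73 and the adjusted p was at most 0.0326. Counts of ribosomal RNA genes took 0.560% to 0.671% of SPOCK1 libraries and 0.696% to 0.738% of controls, also without overlap, and the part of this difference in the ADAMTSL2 result was not tested. In bulk RNA, fewer cells with a transcript and less of it per cell cannot be told apart.

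The promoter of ADAMTSL2 is printed because it belongs to the gene that fell, and those of MMP14, MMP7 and MMP8 because they stand for MMP genes that were expressed or silent in these cells, as described further on. Each window runs from 250 bases before to 50 bases after the RefSeq start on GRCh38.p14 and is given 5′ to 3′ on the gene's strand. Capitals mark matches to TATAAA and to TGACTCA or its reverse complement TGAGTCA, the sequence bound by AP-1 factors. Both were searched on both strands.
ADAMTSL2 (chr9:133534454-133534753, plus strand): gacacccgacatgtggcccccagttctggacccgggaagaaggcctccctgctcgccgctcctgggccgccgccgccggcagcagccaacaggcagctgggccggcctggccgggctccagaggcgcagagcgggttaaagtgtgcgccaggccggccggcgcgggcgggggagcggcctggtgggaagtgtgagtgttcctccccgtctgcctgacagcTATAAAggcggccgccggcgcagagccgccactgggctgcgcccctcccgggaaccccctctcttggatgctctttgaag
MMP14 (chr14:22836335-22836634, plus strand): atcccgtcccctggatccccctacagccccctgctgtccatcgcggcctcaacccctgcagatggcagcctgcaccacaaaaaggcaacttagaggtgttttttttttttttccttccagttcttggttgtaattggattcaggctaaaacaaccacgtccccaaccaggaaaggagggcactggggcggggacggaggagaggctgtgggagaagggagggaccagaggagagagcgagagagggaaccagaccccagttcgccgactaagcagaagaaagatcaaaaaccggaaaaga
MMP7 (chr11:102530698-102530997, minus strand): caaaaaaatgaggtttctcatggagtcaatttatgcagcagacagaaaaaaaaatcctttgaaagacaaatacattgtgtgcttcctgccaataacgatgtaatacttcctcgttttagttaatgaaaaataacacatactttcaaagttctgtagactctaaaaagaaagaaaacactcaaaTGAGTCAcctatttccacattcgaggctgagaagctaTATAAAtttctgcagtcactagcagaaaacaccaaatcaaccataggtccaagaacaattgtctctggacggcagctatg
MMP8 (chr11:102724905-102725204, minus strand): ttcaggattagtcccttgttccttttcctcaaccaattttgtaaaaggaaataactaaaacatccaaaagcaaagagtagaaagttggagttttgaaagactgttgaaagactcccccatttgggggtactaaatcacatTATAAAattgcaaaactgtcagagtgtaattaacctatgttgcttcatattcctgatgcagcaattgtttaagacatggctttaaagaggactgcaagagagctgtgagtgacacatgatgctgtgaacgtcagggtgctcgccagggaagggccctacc
In the ADAMTSL2 window TATAAA began at position -30 relative to the start, a motif held by 11.5% of the 35116 promoters in the table. The window had 27 CpG dinucleotides and a GC content of 72%, and its start lies downstream of the gene start deposited with the counts. MMP7 also held TATAAA at -30, with TGAGTCA at -67, a motif that 4.95% of all promoters hold. MMP8 held TATAAA at -110, and neither motif was found in the MMP14 window. The whole MMP8 window also lies downstream of the deposited gene start, which is at 102727050 on the minus strand.

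The other ADAMTS and ADAMTSL genes did not pass the test. Of the 12 tested ADAMTS and ADAMTSL genes 10 were lower on the log2 scale, the median being -0.25, and 4 had an unadjusted p under 0.05, all of them lower with SPOCK1 (8.17% of all genes tested were lower at that threshold). The median was -0.12 with offsets for GC content and length. Within libraries 2 and 4 alone it was -0.16, within libraries 1 and 3 alone -0.23, and without 1 library -0.31 to -0.18. These values include ADAMTSL2. With it left out, 9 of 11 tested genes were lower, with a median of -0.23 over all libraries. Of the 11, 3 had an unadjusted p under 0.05, all lower. ADAMTS19, a protease with few known substrates, had 7.44, 7.24, 9.08 and 7.53 CPM in SPOCK1 libraries 1 to 4, against 13.5, 9.51, 10.5 and 11.1 CPM in control libraries 1 to 4. The groups did not overlap, but the highest SPOCK1 library came close to the lowest control. Its log2 fold change was -0.51 ± 0.13 (SE, n = 4 each), with an edgeR adjusted p of 0.0870. It was called by DESeq2 (adjusted p = 0.0200, where 2.73% of all genes tested were called), with offsets for GC content and length (0.0208, 3.78% called) and with no filter beyond 1 count (0.0353, 1.39% called). Over all alternatives its adjusted p ran from 0.0200 to 0.422. Exons of ADAMTS19 overlap those of ADAMTS19-AS1 on the other strand, whose reads cannot be separated without a known strand setting.

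ADAMTS8, which is known for inhibiting blood vessel growth, was the ADAMTS gene with the highest level per length. It had 37.5, 44.8, 43.6 and 53.4 CPM in SPOCK1 libraries 1 to 4, against 52.3, 56.6, 55.7 and 61.5 CPM in control libraries 1 to 4. Only SPOCK1 library 4 reached into the range of the controls, while on the TPM scale, which is not TMM-scaled, the groups did not overlap (26.0 to 38.2 TPM with SPOCK1 and 41.7 to 43.7 TPM in controls). The log2 fold change was -0.33 ± 0.10 (SE, edgeR adjusted p = 0.151), and without SPOCK1 library 4 it was -0.43 and called (adjusted p = 0.0357, against 0.0357 to 0.408 over all 17 alternatives). That fit called 171 genes of the whole table lower, against 126 with all libraries. ADAMTS17, which is known for its link to fibrillin microfibrils, averaged 10.8 ± 1.79 CPM with SPOCK1 and 13.8 ± 1.22 CPM in controls (SD, n = 4 each), with ranges of 8.35 to 12.3 CPM and 12.7 to 15.4 CPM that did not overlap (log2 fold change -0.35 ± 0.13, edgeR adjusted p = 0.264).

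Summed over all 24 ADAMTS and ADAMTSL genes, the level was 110.6, 125.0, 130.4 and 147.5 CPM in SPOCK1 libraries 1 to 4, against 172.3, 177.9, 169.2 and 173.7 CPM in control libraries 1 to 4. Without ADAMTSL2 the sum was 83.5 to 111.6 CPM in SPOCK1 libraries and 114.9 to 121.0 CPM in controls. The groups stayed apart in both sums, and the SPOCK1 libraries were more spread than the controls. ADAMTS8 was the largest part of the sum without ADAMTSL2. Its mean was 44.8 of 97.6 CPM with SPOCK1 and 56.5 of 117.7 CPM in controls. ADAMTS15, a neighbour of ADAMTS8 on chromosome 11, had 10.3 to 16.2 CPM with SPOCK1 and 12.7 to 16.2 CPM in controls, and the log2 fold change was -0.17 ± 0.14 (SE, edgeR adjusted p = 0.648). ADAMTS2, which trims the amino end of procollagens, was the family's positive member with the smallest p. It stood at 0.414 ± 0.230 CPM with SPOCK1 and 0.246 ± 0.132 CPM in controls (SD, n = 4 each, edgeR adjusted p = 0.594), and both groups overlapped. ADAMTS1 had 0 counts in all 8 libraries, which allows up to 0.0693 to 0.0856 CPM per library.

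**Figure D2:**
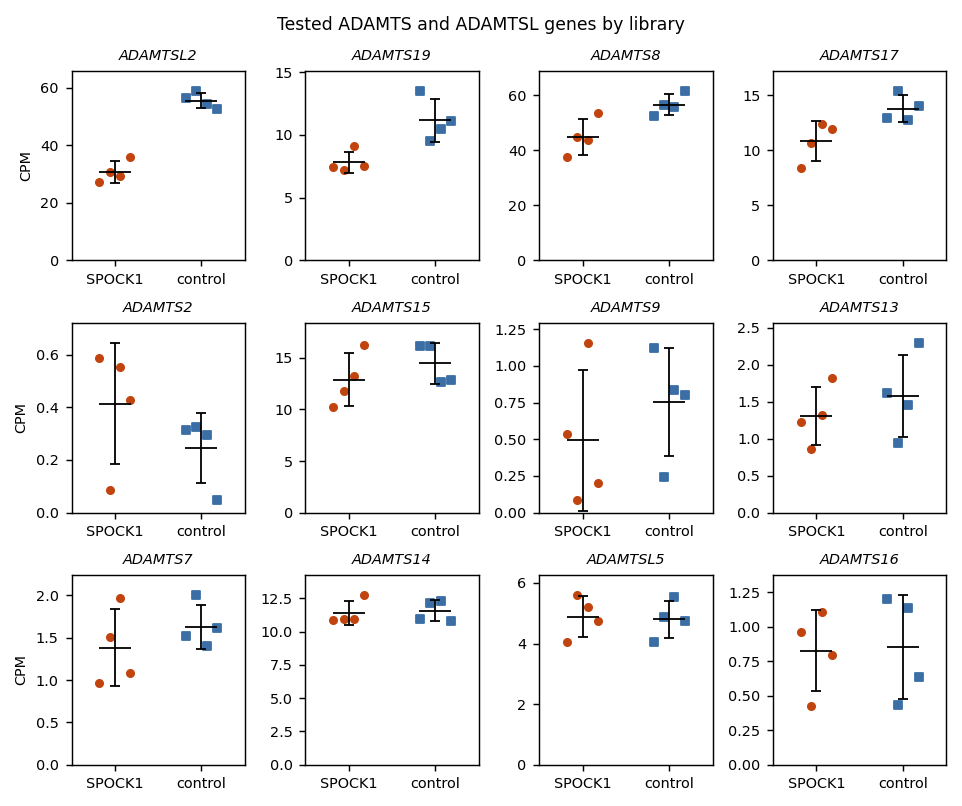
CPM of the 12 tested ADAMTS and ADAMTSL genes are plotted by library, with SPOCK1 libraries as circles on the left, control libraries as squares on the right, and bars for the mean and SD. ADAMTSL2, ADAMTS19 and ADAMTS17 show no overlap between the groups, and the other 9 overlap. Over all genes tested 8.23% show no overlap.

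Membrane-type enzymes made up most of the MMP level, with 46.9 to 68.1 TPM (the transcripts-per-million unit) of 50.6 to 71.7 TPM in SPOCK1 libraries and 59.3 to 69.6 of 62.7 to 73.9 TPM in controls, and none of the 8 tested MMPs passed the test. At an unadjusted p under 0.05, 2 were lower and 1 was higher (8.17% and 5.48% of all genes tested), and DESeq2 called 0. TPM account for gene length and are used here to compare levels between genes. MMP14, the membrane-type enzyme best known for activating MMP2, had 35.0, 43.3, 42.1 and 50.5 TPM in SPOCK1 libraries 1 to 4, against 50.4, 49.0, 45.9 and 43.6 TPM in control libraries 1 to 4. The groups overlapped, and on the CPM scale the log2 fold change was -0.09 ± 0.10 (SE, edgeR adjusted p = 0.739). MMP15, a further membrane-type enzyme, had 9.82, 11.6, 12.2 and 16.7 CPM in SPOCK1 libraries 1 to 4, against 16.4, 17.2, 15.2 and 15.2 CPM in control libraries 1 to 4. SPOCK1 library 4 stood within the controls and the other 3 below them. The log2 fold change was -0.35 ± 0.14 (SE, edgeR adjusted p = 0.295), and without SPOCK1 library 4 it was -0.51 and called (adjusted p = 0.0462, against 0.0462 to 0.702 over all 17 alternatives). That fit called 66 genes of the whole table higher and 171 lower, against 39 and 126 with all libraries. MMP24, a membrane-type enzyme mainly known from neurons, stood at 6.29 ± 0.616 CPM with SPOCK1 and 6.12 ± 0.824 CPM in controls (SD, n = 4 each, edgeR adjusted p = 0.936). Its exons overlap those of MMP24OS on the other strand. The other 3 tested MMPs, MMP17, MMP19 and MMP25, stood at 0.0535 to 1.29 CPM in the 8 libraries.

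Of the secreted MMPs, MMP11 and MMP2 leaned in opposite directions. MMP11, or stromelysin-3, which is cut to its active form by furin inside the cell, had 2.22, 1.85, 1.90 and 1.77 CPM in SPOCK1 libraries 1 to 4, against 2.48, 3.89, 3.42 and 2.68 CPM in control libraries 1 to 4. All SPOCK1 libraries were below all controls, by a small gap (log2 fold change -0.69 ± 0.20, SE, edgeR adjusted p = 0.125). Exons of MMP11 overlap those of CHCHD10 on the other strand. MMP2, the gelatinase whose precursor MMP14 activates together with TIMP2, had 3.16, 2.05, 1.80 and 1.97 CPM in SPOCK1 libraries 1 to 4, against 1.07, 1.92, 1.24 and 1.46 CPM in control libraries 1 to 4. Control library 2 reached into the SPOCK1 range (log2 fold change 0.66 ± 0.25, SE, edgeR adjusted p = 0.272). Under the 17 alternatives this value lay between 0.25 and 1.10 and was never called. Exons of MMP2 overlap those of AC007336.3 on the same strand. MMP9, the other gelatinase, had 22 counts over all SPOCK1 libraries and 16 over all controls, too few to be tested.

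MMP genes that lie together on chromosome 11 were silent or nearly so. MMP7, MMP20, MMP27, MMP8, MMP10, MMP1, MMP3, MMP12 and MMP13 lie in a run from 102520508 to 102955734 (GRCh38), with no other protein-coding gene lying wholly between its ends. It holds the interstitial collagenases MMP1, MMP8 and MMP13, the stromelysins MMP3 and MMP10, and the matrilysin MMP7, a known Wnt target in intestinal tumours. The 9 genes had 7 counts over all SPOCK1 libraries and 4 over all controls, with at most 4 for any gene in any library, and 5 of them had 0 throughout. MMP7 had 2 counts in SPOCK1 library 2 and 2 in control library 1, MMP1 had 1 count in SPOCK1 library 3, and MMP13 had 0 in all 8. Differences between the groups at this level were not detectable at this depth. MMP28, an epithelial MMP just under the filter and named after its values were seen, had 2, 10, 2 and 0 counts in SPOCK1 libraries 1 to 4, against 23, 10, 18 and 6 in control libraries 1 to 4. The groups overlapped, and with no filter beyond 1 count its edgeR adjusted p was 0.221.

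Counts this low are coarse. Of the members' counts from 1 to 20, 90 of 129 were even numbers, as were 60.8% of such counts over all genes, against 50.4% of counts above 100 and up to 1000. Whether single reads or read pairs were counted is not given in the sources used here. Limits set by a count of 0 cover counting error only.

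The 5 promoters of this run that the table holds had CpG ratios (observed over expected CpG) below 0.6, with a median of 0.206. TATAAA was held by 4 of the 5, against 21.1% of other protein-coding genes that were not tested. Among members in general, 25 of the 30 tested genes with a promoter in the table had a ratio of at least 0.6, against 10 of 24 that were not tested. Among other protein-coding genes the ratio was at least 0.6 in 87.9% of those tested and 34.4% of those not tested. Of the 5 tested members below 0.6, TIMP1 and MMP14 had the highest levels, at 247.5 and 44.97 TPM over all libraries with ratios of 0.518 and 0.442.

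**Figure D3:**
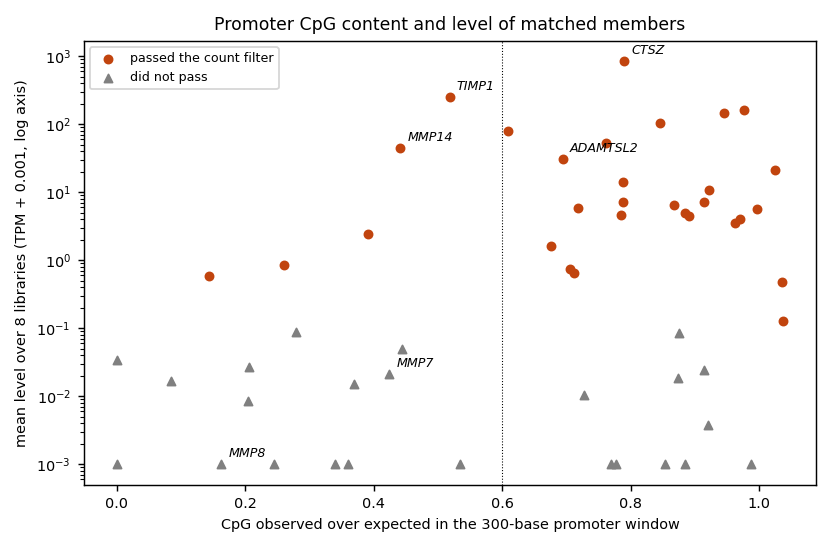
Mean TPM over all 8 libraries plus 0.001 (log axis) is plotted against the CpG ratio of the promoter for the 54 members with a promoter in the table, with circles for genes that passed the filter and triangles for those that did not. The dotted line is at 0.6; MMP7 and MMP8 lie to its left at the bottom, and MMP14 and TIMP1 to its left near the top.

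The inhibitors were more abundant than the metalloproteinases of the MMP family, and none of the 4 TIMPs passed the test. None had an unadjusted p under 0.05, and DESeq2 called 0. TIMP1, a broad MMP inhibitor, had 108.6, 114.4, 108.1 and 122.7 CPM in SPOCK1 libraries 1 to 4, against 100.7, 129.0, 112.2 and 123.3 CPM in control libraries 1 to 4. The SPOCK1 libraries lay within the range of the controls, and the log2 fold change was -0.04 ± 0.09 (SE, edgeR adjusted p = 0.898). TIMP2, which both blocks MMP14 and takes part in its activation of MMP2, averaged 106.2 ± 12.0 CPM with SPOCK1 and 116.1 ± 5.12 CPM in controls (SD, n = 4 each, edgeR adjusted p = 0.534). The ratio of TIMP2 to MMP14 in TPM was 1.47, 1.44, 1.48 and 1.38 in SPOCK1 libraries 1 to 4, against 1.51, 1.47, 1.44 and 1.50 in control libraries 1 to 4. TIMP3, which binds matrix and inhibits ADAM17, had a log2 fold change of -0.05 ± 0.11, and TIMP4 of 0.04 ± 0.31 (SE, edgeR adjusted p = 0.880 and 0.969). Summed TPM were 287.1 to 343.6 for the TIMPs and 50.6 to 71.7 for the MMPs in SPOCK1 libraries, and 325.2 to 369.0 and 62.7 to 73.9 in controls.

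**Figure D4:**
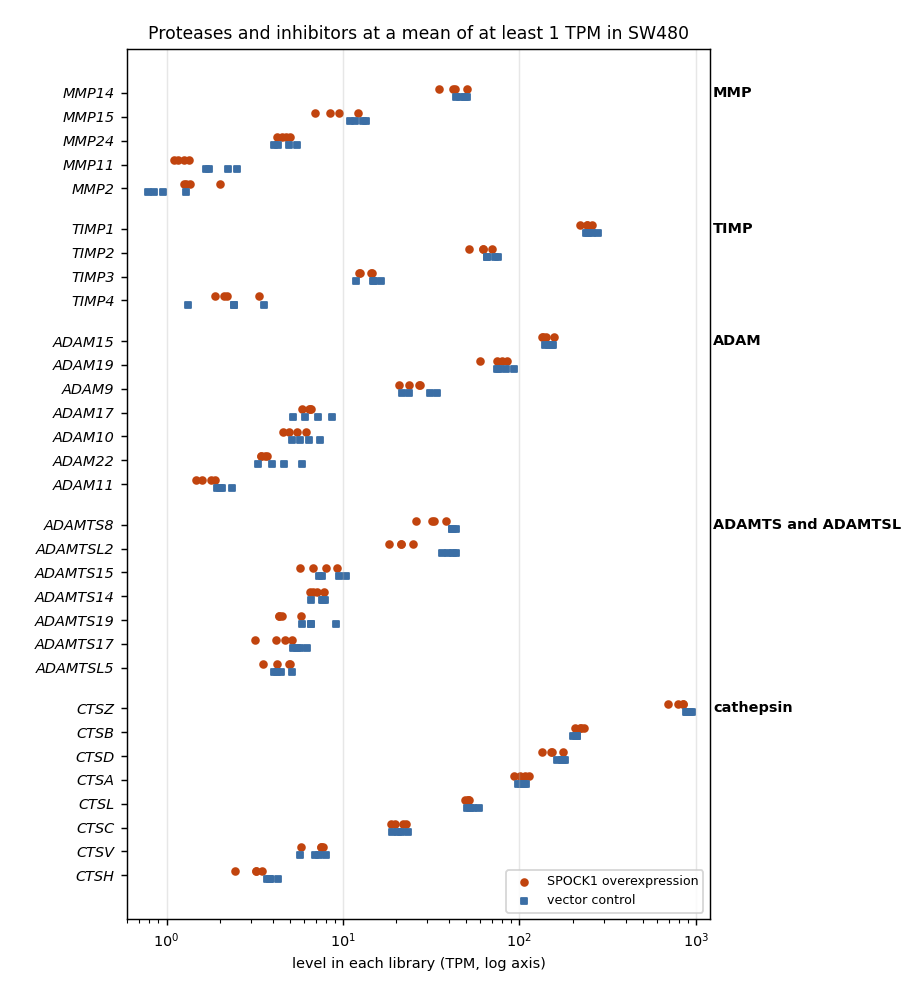
TPM in each library (log axis) are plotted for the 31 members at a mean of at least 1 TPM, ordered by level within each family, with SPOCK1 libraries as circles above the control libraries as squares. CTSZ, CTSB, CTSD, CTSA, TIMP1 and ADAM15 average above 100 TPM, and ADAMTSL2 lies at 18.3 to 24.8 TPM in SPOCK1 libraries, left of the controls at 36.2 to 43.8 TPM.

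The ADAM genes did not pass the test, with 7 of 9 tested members negative, a median log2 fold change of -0.09, 0 at an unadjusted p under 0.05 and 0 called by DESeq2. ADAM15, whose outer part binds integrins, was the most abundant at 142.0 ± 9.96 TPM with SPOCK1 and 148.9 ± 6.93 TPM in controls (SD, n = 4 each, edgeR adjusted p = 0.956). ADAM19 followed at 74.5 ± 10.8 TPM with SPOCK1 and 82.3 ± 8.42 TPM in controls (SD, n = 4 each). ADAM17, which releases tumour necrosis factor and several EGF receptor ligands, had 22.1, 21.7, 20.3 and 19.6 CPM in SPOCK1 libraries 1 to 4, against 25.7, 19.5, 23.0 and 17.3 CPM in control libraries 1 to 4. All SPOCK1 libraries lay inside the range of the controls (log2 fold change -0.03 ± 0.12, SE, edgeR adjusted p = 0.939). ADAM10, the main protease that cuts Notch receptors after ligand binding, had 25.6, 27.5, 28.96 and 22.8 CPM in SPOCK1 libraries 1 to 4, against 32.9, 27.7, 30.8 and 26.0 CPM in control libraries 1 to 4. These groups overlapped too (log2 fold change -0.16 ± 0.11, SE, edgeR adjusted p = 0.526). ADAM8, best known from leukocytes, was low at 1.18 ± 0.218 CPM with SPOCK1 and 1.00 ± 0.096 CPM in controls (SD, n = 4 each, edgeR adjusted p = 0.761).

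ADAM9, a widely expressed ADAM, varied more between libraries of a group than between the groups. It had 59.6, 50.2, 54.9 and 44.3 CPM in SPOCK1 libraries 1 to 4, against 64.5, 48.7, 63.9 and 46.2 CPM in control libraries 1 to 4. In both groups libraries 1 and 3 were above libraries 2 and 4, which also held for ADAM22, the other such gene among the 34 members at a mean of at least 1 CPM. Of all genes tested at that level 12.3% showed this order. Both transcripts are poor in GC, at 39.4% and 40.7%. CTSC, ADAM10 and ADAM17 were poorer still, at 38.2%, 38.3% and 38.5%, without this order holding in both groups. Across the 34 members the log2 difference of libraries 2 and 4 from libraries 1 and 3 went with GC content, at Pearson r = 0.586 (Spearman rho = 0.530) in SPOCK1 libraries and r = 0.492 (rho = 0.274) in controls. These are correlations across genes of the same libraries, and genes are not independent replicates. Within libraries 1 and 3 alone ADAMTSL2 differed by -0.97 ± 0.12 in log2 units (SE, adjusted p = 0.0326), and within libraries 2 and 4 alone -0.74 ± 0.11 (SE, adjusted p = 4.95e-05, edgeR, 2 libraries per group).

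**Figure D5:**
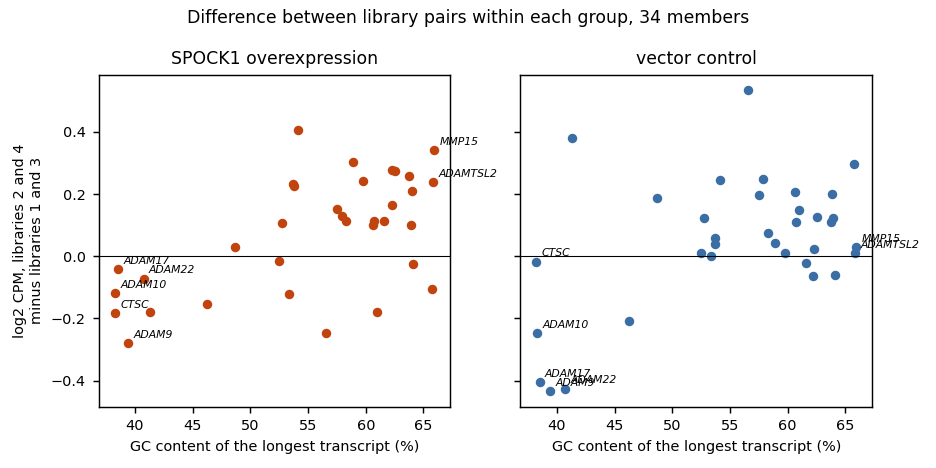
The mean log2 CPM of libraries 2 and 4 minus that of libraries 1 and 3 is plotted against the GC content of the longest transcript for 34 members, in SPOCK1 libraries on the left and control libraries on the right. ADAM9 and ADAM22, at 39.4% and 40.7% GC, lie below 0 in both.

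Cathepsins had the highest summed level of the families, at 1215 to 1453 TPM in SPOCK1 libraries and 1434 to 1546 TPM in controls, and none of the 11 tested passed the test. In CPM the control sums, 1420 to 1523, lay within those of the SPOCK1 libraries, 1384 to 1566. None had an unadjusted p under 0.05, and DESeq2 called 0. CTSZ, a carboxypeptidase also called cathepsin X, ranked first of all members and at place 157 of the 15790 tested genes by TPM. It had 450.3, 496.1, 505.9 and 536.4 CPM in SPOCK1 libraries 1 to 4, against 531.0, 567.0, 534.1 and 554.6 CPM in control libraries 1 to 4. SPOCK1 library 4 overlapped with the controls in CPM. In TPM, which are not TMM-scaled, all SPOCK1 libraries (694.2 to 850.5) lay below all controls (874.5 to 947.5). The log2 fold change was -0.14 ± 0.07 (SE, edgeR adjusted p = 0.435). CTSB, which encodes cathepsin B, a cysteine protease of lysosomes, leaned the other way. It had 485.7, 507.1, 482.5 and 535.4 CPM in SPOCK1 libraries 1 to 4, against 434.2, 472.0, 442.0 and 482.1 CPM in control libraries 1 to 4. The groups did not overlap, by a gap of less than 1 CPM (log2 fold change 0.14 ± 0.07, SE, edgeR adjusted p = 0.430). CTSB and CTSH were the 2 of 11 tested cathepsin genes without overlap in CPM, or 18.2%, against 8.23% of all genes tested. CTSH, an aminopeptidase, had 4.42 to 6.36 CPM with SPOCK1 and 6.59 to 7.07 CPM in controls (log2 fold change -0.29 ± 0.14, SE, edgeR adjusted p = 0.375).

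CTSL, which encodes cathepsin L, the protease that testican-1 inhibits, had 39.0, 35.7, 35.1 and 37.6 CPM in SPOCK1 libraries 1 to 4, against 38.6, 38.9, 36.9 and 37.1 CPM in control libraries 1 to 4. The groups overlapped, and the log2 fold change was -0.04 ± 0.08 (SE, edgeR adjusted p = 0.879), and 2 standard errors either way span fold changes of 0.867 to 1.09. CTSV, its closest relative in human, had 10.3 ± 1.32 CPM with SPOCK1 and 9.73 ± 1.54 CPM in controls (SD, n = 4 each). They differed by 0.08 ± 0.14 in log2 units (SE, edgeR adjusted p = 0.840). CTSD, the aspartic protease cathepsin D, averaged 153.4 ± 17.2 TPM with SPOCK1 and 174.2 ± 7.34 TPM in controls (SD, n = 4 each, edgeR adjusted p = 0.531). CTSA, a serine carboxypeptidase that stabilises lysosomal neuraminidase, and CTSC, which activates serine proteases of granules in leukocytes, had log2 fold changes of 0.05 ± 0.08 and 0.04 ± 0.08 (SE, edgeR adjusted p = 0.810 and 0.875). CTSA exons overlap those of PLTP and NEURL2. The leukocyte and bone enzymes CTSG, CTSS and CTSK stayed under 1 CPM in every library. For 33 of the 44 tested members, 2 standard errors either way excluded a change of 1 or more on the log2 scale.

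Further genes around these proteases were described by list, beside 1.04% of all genes tested that were called. Cystatins and lysosomal partners of cathepsins had 1 fall and 0 rises among 26 tested genes, with a median log2 fold change of 5.86e-04. At an unadjusted p under 0.05, 3 were lower and 0 higher (8.17% and 5.48% of all genes tested). DESeq2 called 1 lower and 0 higher, against 1.96% lower and 0.776% higher of all genes. The fall was CST1, a secreted cystatin that inhibits papain-type cathepsins. CST1 (chromosome 20, 23747553 to 23751268 on GRCh38) had 38.0, 35.4, 38.1 and 41.7 CPM in SPOCK1 libraries 1 to 4, against 72.8, 63.7, 88.6 and 81.0 CPM in control libraries 1 to 4. The groups were far apart. CST1 fell by 49.9%, and the log2 fold change was -0.997 ± 0.10 (SE, edgeR adjusted p = 5.24e-05). Its close relatives CST2 and CST4 had 2 and 11 counts over all SPOCK1 libraries and 4 and 19 over all controls, and reads that match several of these genes make the split between them uncertain. The broad inhibitors CST3 and CSTB had log2 fold changes of -0.0026 and 0.02 (edgeR adjusted p = 0.992 and 0.944).

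Of 33 tested substrates of ADAM10 and ADAM17, 2 fell and 0 rose (0.798% and 0.247% of all genes tested), with a median log2 fold change of -0.04. At an unadjusted p under 0.05 there were 7 lower and 0 higher (8.17% and 5.48% of all genes tested). DESeq2 called 3 lower and 0 higher, against 1.96% lower and 0.776% higher of all genes. The third was LRP1, an endocytic receptor named after its values were seen (DESeq2 adjusted p = 0.00803, edgeR adjusted p = 0.0708). The log2 fold change of LRP1 was -0.60 over all libraries and -0.40 with offsets for GC content and length (edgeR adjusted p = 0.0385). It was -0.96 within libraries 1 and 3 alone and -0.27 within libraries 2 and 4 alone (edgeR adjusted p = 0.0963 and 0.505). PTK7, a receptor-like protein of Wnt signalling, fell by 28.7%, with 99.0 to 135.7 CPM in SPOCK1 libraries and 157.6 to 167.2 CPM in controls (edgeR adjusted p = 0.0102). The other was CDH1, which encodes E-cadherin and fell by 37.2%, with 11.2 ± 1.21 CPM with SPOCK1 and 17.8 ± 1.29 CPM in controls (SD, n = 4 each, edgeR adjusted p = 0.00537). Within libraries 1 and 3 alone, where 8 genes of the whole table were called, the log2 fold change was -0.60 for PTK7 and -0.80 for CDH1, against -0.49 and -0.67 over all libraries, and neither was called (edgeR adjusted p = 0.150 and 0.223). Within libraries 2 and 4 alone both were called, at -0.39 for PTK7 and -0.55 for CDH1 (edgeR adjusted p = 0.0212 and 0.0337). Proteins that activate or carry these proteases at the surface gave 0 calls among 15 tested genes, with a median log2 fold change of -0.09, 1 lower and 1 higher at an unadjusted p under 0.05 (8.17% and 5.48% of all genes tested) and 0 called by DESeq2. FURIN, which cuts many ADAM and membrane-type MMP precursors, had a log2 fold change of -0.13 ± 0.09, and BSG, an inducer of MMPs, of -0.02 ± 0.08 (SE, edgeR adjusted p = 0.593 and 0.950). The 7 tested metalloproteases and relatives outside the symbol rule, such as BMP1 and ECE1, gave 0 calls by edgeR and by DESeq2, with a median of 0.02 and 0 at an unadjusted p under 0.05.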

How the data were processed

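RNA of 8 SW480 libraries was analysed, 4 with SPOCK1 and 4 with vector, grouped and numbered by the library titles. The authors deposited whole-number read counts per gene, without normalization. The submitters' processing notes name the programs CASAVA, HISAT2 (2.0.5) and featureCounts (1.5.0-p3). Not given in the sources used here are the build, how strand was handled, and what was done with multi-mapping reads. The deposited start, end and strand of all 58735 genes equal those of GENCODE release 29 on GRCh38.

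Genes were filtered with filterByExpr (minimum count 10, minimum total 15) and compared with edgeR 4.0.16 in R 4.3.3: TMM factors, quasi-likelihood F test, no covariates, Benjamini-Hochberg adjustment over the genes tested, threshold 0.05. CPM use TMM-scaled library sizes. TPM were computed from the deposited gene lengths in bases, another deposited column, and serve to compare levels between genes. For a gene at 0, the limit was set at 3 counts.

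The members, the gene lists and the tests were chosen with earlier results of these data known. Named members were those called, 25 chosen whatever their values, the 3 with the highest TPM in each family, and the 5 positive and 5 negative with the smallest p, 33 in all. For each list outside the members, up to 5 called genes were named. ADAM22, CTSG, CTSH, CTSK, CTSS, LRP1, MMP28, FURIN, BSG, CST3 and CSTB were named outside this rule, after their values were seen.

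Alternatives were RLE and upper-quartile factors, DESeq2 1.42.0, 2 other filters, a block for replicate number, fits without 1 library, libraries 1 and 3 or 2 and 4 alone, and offsets for GC content and length (natural splines of 5 degrees of freedom). Promoters are RefSeq's, matched by symbol for 54 members. A planned search of protein sequences was not run, and 1 further gene list is not reported here.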

Additional observations from a re-analysis of the deposited data

Results flagged for a closer look

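Among 56 groups of 4 libraries checked, for 28 tested members, 4 held a library far from the other 3, as measured by its gap to the nearest of them over the range of the group. Chance gives about 1 in 20. ADAMTS19 stood at 9.08 CPM in SPOCK1 library 3, against 7.24 to 7.53 CPM in the other SPOCK1 libraries. TIMP4 stood at 1.71 CPM in SPOCK1 library 2, against 0.990 to 1.08 CPM in the others. In controls, ADAMTS2 stood at 0.0488 CPM in library 4, against 0.297 to 0.324 CPM in the others, and TIMP3 at 16.2 CPM in library 3, against 20.6 to 21.2 CPM in the others.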

How the results depend on the processing

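ADAMTSL2 was called lower under all 17 alternatives, and 0 members were called higher under any. The number called lower was 2 with DESeq2, with no filter beyond 1 count and with GC content and length offsets (ADAMTSL2 and ADAMTS19 each time), and 1 to 3 without 1 library. Over all genes 39 were higher and 126 lower. DESeq2 gave 113 and 285, no filter beyond 1 count 120 and 279, the GC content and length offsets 310 and 287, libraries 1 and 3 alone 1 and 7, and the fits without 1 library 24 to 66 and 63 to 171. Higher calls were 24 without SPOCK1 library 2 or control library 2, 25 without control library 4 and 66 without SPOCK1 library 4, and lower calls 66, 63 and 72 without SPOCK1 library 2, SPOCK1 library 3 or control library 2. Without SPOCK1 library 4 the 3 members called were ADAMTSL2, ADAMTS8 and MMP15. The cause was not tested.

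Of 28 tested named members 19 kept their sign under every alternative. The other 9 changed sign without ever being called. With GC content and length offsets the log2 fold change was 0.12 for ADAM15 and 0.027 for ADAM17. Within libraries 1 and 3 it was 0.039 for ADAM15, 0.029 for TIMP1, 0.025 for TIMP3 and -0.14 for TIMP4. Within libraries 2 and 4 it was 0.16 for ADAM17, -0.048 for CTSC, -0.18 for CTSV, 0.033 for MMP14 and -0.016 for MMP24. Without 1 library it ran from -0.066 to 0.031 for ADAM15, -0.12 to 0.069 for ADAM17, -0.025 to 0.083 for CTSC, -0.0014 to 0.17 for CTSV, -0.023 to 0.13 for MMP24, -0.099 to 0.017 for TIMP1 and -0.17 to 0.23 for TIMP4.

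Same-numbered libraries are not known to be paired: their deviations from the group means correlated at -0.064 to 0.077, against -0.135 to 0.141 for other pairs. With the replicate number as a block 31 genes were higher and 84 lower, ADAMTSL2 was the 1 member called (log2 fold change -0.86, adjusted p = 0.00193), and no named member changed its call. At this depth 42 members could not be tested, and 22 of them had 0 counts in every library.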
